A study of Mus musculus with 36 samples.

Results

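The tripartite motif (Trim) genes typically encode proteins with a RING finger, B-box domains and a coiled coil, though not each member has all of these. Here 57 genes of this name were followed among the 18193 genes that the array covers. They were chosen by symbol: each gene whose symbol is Trim, a number and at most a letter was taken from the probe sets that name a single gene, Trim21 was left out, and each gene was read through its brightest probe set, by the mean of all 36 arrays. The symbols matched 109 probe sets, so that 27 genes had a single probe set and 30 had several. A further 5 probe sets name a Trim gene together with another gene, and Trim34b and Trim30b, which appear on the array in such probe sets, are not among the 57. The rule uses symbols and mean levels, but it was set with earlier results of these data known. Trim21, which had been assigned to a set of genes raised by modafinil in these data, does not enter the counts below.

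The samples were brain tissue of male mice labelled C57B1/6J trained for conditioned place preference, which pairs drug injections with a compartment of the test box. Modafinil, a wake-promoting drug that inhibits dopamine uptake, was given at 65 mg/kg and the control mice received saline vehicle on the same schedule, with conditioning from day 3 to day 10. All mice were killed on day 11, 24 h after the last dose, and carried no labelled transgene or deletion. Punches of 1 mm were taken from slices of 100 µm in the ventral tegmental area (VTA), where midbrain dopamine neurons lie, the nucleus accumbens (NAC), which they innervate in the ventral striatum, and the prefrontal cortex (PFC). The VTA was measured on 5 arrays of vehicle mice and 5 of modafinil mice, the NAC likewise on 5 and 5, and the PFC on 8 and 8. RNA of 2 tissue pieces was pooled in part of the samples, and the labels do not say that the arrays of a group came from separate mice, so p-values measure the spread between these samples, which may be technical. Levels are log2 of the array signal as deposited, a difference of 1 is a doubling, and probe sets of different genes are not compared in level.

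Most Trim proteins are ubiquitin ligases, the RING finger carrying out the transfer and the C-terminal domain choosing the target. A branch of the family with a C-terminal SPRY domain takes part in innate immunity: interferons raise the transcription of many of its genes through factors that bind short promoter elements, and the proteins tune pattern-recognition signalling or block viruses. Other branches act in neurons and muscle, such as the members with a COS box that bind microtubules, the members with NHL repeats, and the members of the TIF1 group that regulate transcription. By these roles, 11 of the 57 genes were counted as interferon-linked or antiviral, 6 as COS box members, 4 as NHL members, 4 as TIF1 members and 32 as other.

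Part of the interferon-linked branch lies side by side on chromosome 7. In the RefSeq gene order, 10 of 11 consecutive protein-coding genes there are Trim genes: Trim6, Trim34a, Trim5, Trim12a, Trim34b, Trim12c, Trim30b, Trim30c, Trim30a and Trim30d. Of these, 7 are among the 57 genes measured (Trim6, Trim34a, Trim5, Trim12a, Trim12c, Trim30a and Trim30d). Trim30a is an interferon-induced protein that limits NF-kB signalling below Toll-like receptors. Trim5, Trim12a and Trim12c are relatives of the primate retroviral restriction factor TRIM5, and Trim6 is a ligase in type I interferon signalling.

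The start-site windows of this run are shown because the levels of its members are followed most closely below, and because 6 of the 7 measured members, all but Trim6, carry the core letters of the interferon-stimulated response element (ISRE), GAAA followed by any 2 bases and GAAA. The windows are RefSeq sequences of build GRCm38.p6, written on the gene's own strand, with the match in capitals. A match on the other strand reads TTTC, any 2 bases and TTTC. Trim30a has annotated starts at different positions, and its window at chr7:104465169-104465443, minus strand, runs from position -250 to 25 relative to the start. Trim34a lies at chr7:104244207-104244481, plus strand, with the same span.
Trim30a: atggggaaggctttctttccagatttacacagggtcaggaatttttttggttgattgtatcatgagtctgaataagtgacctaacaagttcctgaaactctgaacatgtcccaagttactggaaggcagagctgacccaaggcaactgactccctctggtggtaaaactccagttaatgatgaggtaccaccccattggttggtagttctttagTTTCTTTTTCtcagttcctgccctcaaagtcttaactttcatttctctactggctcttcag
Trim34a: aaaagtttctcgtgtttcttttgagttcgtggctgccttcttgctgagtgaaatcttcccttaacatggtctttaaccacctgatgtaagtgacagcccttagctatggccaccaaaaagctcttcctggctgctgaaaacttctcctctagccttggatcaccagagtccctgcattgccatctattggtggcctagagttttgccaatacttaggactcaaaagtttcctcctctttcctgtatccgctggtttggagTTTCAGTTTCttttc

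Shorter stretches around the match show the other members of the run that hold it. Trim5 is at chr7:104288121-104288180, Trim12a at chr7:104315471-104315510, Trim12c at chr7:104353344-104353403 and Trim30d at chr7:104507856-104507915, all on the minus strand. Trim26, an antiviral member outside the run, is at chr17:36836961-36837026, plus strand, and holds overlapping matches.
Trim5: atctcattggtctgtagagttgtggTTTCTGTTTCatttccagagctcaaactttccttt
Trim12a: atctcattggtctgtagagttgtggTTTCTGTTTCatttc
Trim12c: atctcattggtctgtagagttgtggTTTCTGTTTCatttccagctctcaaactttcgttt
Trim30d: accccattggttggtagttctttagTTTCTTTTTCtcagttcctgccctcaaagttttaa
Trim26: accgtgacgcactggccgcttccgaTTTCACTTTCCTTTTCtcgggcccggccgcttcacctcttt

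The stretch of 50 bases around the match was identical between Trim5 and Trim12a and between Trim30a and Trim30d, and 48 of 50 bases were shared by Trim12a and Trim12c. Trim34a shared 24 of 50 bases with Trim12a and 22 of 50 with Trim30a. The sequence thus fell into a Trim30 form, a Trim5 and Trim12 form, and a form of Trim34a, as printed above. The match began at position -36 from the start in the Trim30a window shown and at position 3 in the window of the other start. It began at -49 in Trim5, -41 in Trim30d and -29 in Trim12c, and at 11 in Trim12a and in Trim34a.

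Over windows from position -250 to 50 around each start, on both strands, the ISRE core was found in 8 of the 46 Trim genes with a window (17.4%), against 3.99% of 27025 genes. Apart from Trim26 and Trim2, an NHL member with its match at position 29, these genes lie in the chromosome 7 run. Several of those share all or nearly all bases around the match, as given above. The count is thus not one of separate sequences. Of the 12 genes with a window that make up the interferon index described below, 7 held a match. The shorter form GAANNGAAA, whose matches can overlap those of the ISRE core, was found in 11 of the 46 Trim genes (23.9%) against 8.68% of genes. The genes of the run that hold the ISRE core are among these as well. A match is a description of the letters, and binding was not measured.

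**Figure D1:**
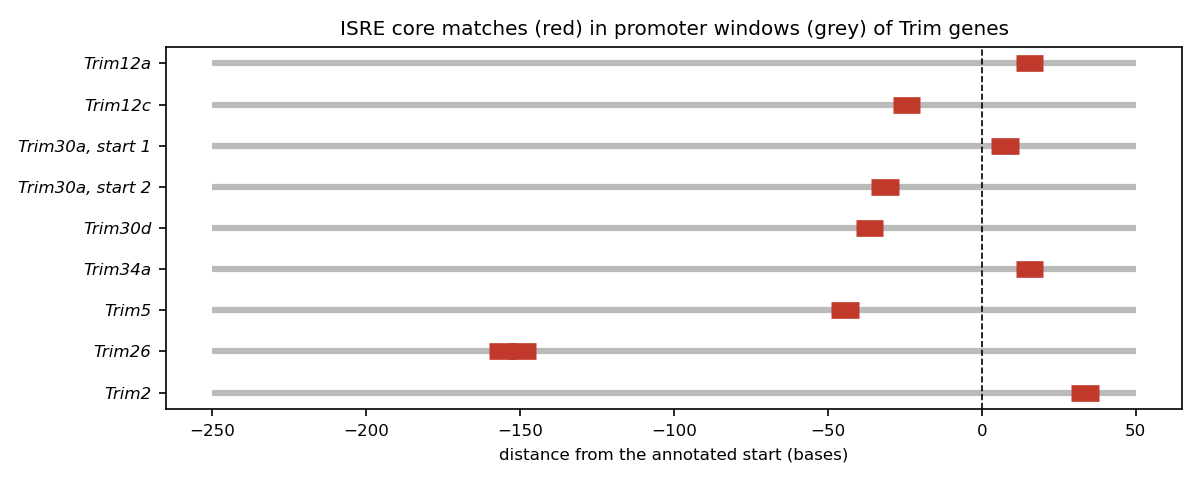
Positions of the ISRE core, on either strand, in the start-site windows of the Trim genes that hold it, plotted as bases from the annotated start (x axis, from -250 to 50) with 1 line for each window. In Trim5, Trim30d, Trim30a and Trim12c a match begins between positions -49 and -29, and in Trim34a and Trim12a it begins at position 11.

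The tissue labels were compared with marker genes. The mean level of 8 dopamine neuron genes was 9.10 ± 0.69 (SD, n = 5) in vehicle VTA and 6.18 ± 0.095 (n = 5) in vehicle NAC, and the mean of 6 striatal genes was 10.8 ± 0.40 in vehicle NAC and 7.69 ± 0.19 in vehicle VTA. Within the VTA the dopamine genes were lower in the modafinil arrays (7.24 to 8.92) than in the vehicle arrays (8.38 to 10.2), and 5 thalamic genes were higher in all 5 modafinil arrays (10.3 to 11.1 against 9.26 to 9.97). In modafinil PFC array 3 the striatal genes stood at 9.91, while the vehicle PFC arrays reached at most 8.01. Whether the VTA tissue sampled differed between the groups was not tested. The PFC arrays lay on another scale, with array medians of 7.20 to 7.27 against 6.76 to 6.90 in the other regions, so levels are compared within a region or between VTA and NAC. In tissue RNA, fewer cells of a type and less RNA per cell cannot be told apart.

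The interferon response itself was measured with 14 genes that hold no Trim gene, among them the guanylate-binding protein Gbp2, the immunity-related GTPases Iigp1 and Irgm2, the transcription factor Irf1 and the antigen-processing genes Psmb8, Psmb9, Tap1 and B2m. Their mean level is called the interferon index. The list was chosen with its rise in these arrays known and is no independent evidence of it. The index lay at 7.03 to 7.33 in vehicle VTA, 6.82 to 6.96 in vehicle NAC and 7.34 to 7.67 in vehicle PFC. In the modafinil arrays it was 8.96, 8.75, 7.10, 8.92 and 8.97 in the VTA, 8.84, 8.44, 7.37, 6.84 and 8.70 in the NAC, and 8.85, 9.41, 7.91, 8.85, 9.02, 7.46, 9.32 and 9.26 in the PFC. Within each modafinil group the values split at a wide gap: array 3 of the VTA, arrays 3 and 4 of the NAC and arrays 3 and 6 of the PFC lay on the lower side, and the other 13 of 18 arrays on the upper side. Number 3 is thus low in each region, and the labels do not say whether a number marks the same mouse. These low arrays recur in the Trim values below.

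Trim30a was higher after modafinil in each region, with overlap between the groups. In the VTA its level was 6.90, 7.35, 6.80, 6.69 and 6.90 in the vehicle arrays and 7.88, 7.27, 6.67, 7.81 and 7.59 in the modafinil arrays. On modafinil arrays 1, 4 and 5 it exceeded each vehicle value, and array 3, low in the index, lay below the lowest. In the NAC it was 6.52, 6.89, 6.56, 6.60 and 6.81 with vehicle and 7.58, 7.27, 6.76, 6.56 and 7.08 with modafinil, arrays 3 and 4 being the lowest. In the PFC the vehicle arrays ran from 7.01 to 7.49 with a median of 7.25, and the modafinil arrays from 7.16 to 8.46 with a median of 7.86. Here 6 of 8 modafinil arrays exceeded each vehicle array, and arrays 3 and 6 did not.

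Trim34a, which lies in the same chromosome 7 run, was higher as well, with its low values on the same modafinil arrays. In the VTA it was 6.83, 6.93, 6.93, 6.77 and 6.74 with vehicle and 7.11, 7.05, 6.67, 7.25 and 7.25 with modafinil, so that all modafinil arrays but array 3 were above the vehicle arrays. In the NAC it was 6.43, 6.63, 6.61, 6.51 and 6.39 with vehicle and 7.23, 7.03, 6.61, 6.38 and 6.94 with modafinil, arrays 3 and 4 again being the lowest. In the PFC it ran from 6.96 to 7.80 with a median of 7.19 in the vehicle arrays and from 7.05 to 8.30 with a median of 7.89 in the modafinil arrays, of which 5 of 8 exceeded the highest vehicle array. The lowest modafinil PFC arrays were 6 and 3 for Trim34a as for Trim30a.

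Across the 3 regions a treatment term was fitted with region as a factor, so that the PFC, with the most arrays, counted most. Trim30a rose by 0.51 log2 (SE 0.103, 1.42-fold, limma adjusted p = 0.00658) and Trim34a by 0.37 (SE 0.0891, 1.29-fold, adjusted p = 0.0344). These 2 were the members called, both higher, of 34 tested (5.88%), where 0.84% of the 27022 probe sets tested were called and 0.444% were called higher. The other 23 members did not pass the filter on low levels. In that same fit, 13 of 13 tested index genes were called, led by Gbp2 at 2.32 log2 (4.99-fold), and Irf1 rose by 0.41. The Trim changes were thus of the size of the Irf1 change. The call for Trim34a was lost on leaving out vehicle VTA array 5, modafinil VTA arrays 1, 4 or 5, vehicle NAC array 5, modafinil NAC arrays 1 or 5, vehicle PFC arrays 1, 6, 7 or 8, or modafinil PFC arrays 1, 2, 5 or 8, with adjusted p of 0.0652 at most, while Trim30a kept its call on leaving out any single array. With arrays of the same treatment and number in different regions as a random block, chosen after seeing the data, Trim34a had an adjusted p of 0.0609.

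Within the regions no member was called. In the VTA 0 of 34 tested members passed, against 0.259% of all probe sets, and 3 members were higher and 8 lower at an unadjusted p under 0.05, a limit passed upwards by 6.84% and downwards by 14.2% of all probe sets. Trim30a was higher by 0.52 (SE 0.205, limma adjusted p = 0.186) and Trim34a by 0.23 (SE 0.102, adjusted p = 0.229). In the NAC 0 of 33 passed, as did 0 of all probe sets, and 2 members, Trim34a and Trim30a, were higher and 0 lower at an unadjusted p under 0.05, against 1.14% and 2.09% of all probe sets. Their values were 0.32 (SE 0.14, adjusted p = 1.00) and 0.38 (SE 0.167, adjusted p = 1.00), and Trim30a stood at 0.24 without modafinil NAC array 1. In the PFC 0 of 36 passed, against 0.0518% of all probe sets, with 2 members higher and 1 lower at an unadjusted p under 0.05 (3.63% and 8.15% of all probe sets). Trim30a was higher by 0.59 (SE 0.139, adjusted p = 0.137) and Trim34a by 0.48 (SE 0.153, adjusted p = 0.29), and without modafinil PFC array 6 the value for Trim30a was 0.69 (adjusted p = 0.0129).

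**Figure D2:**
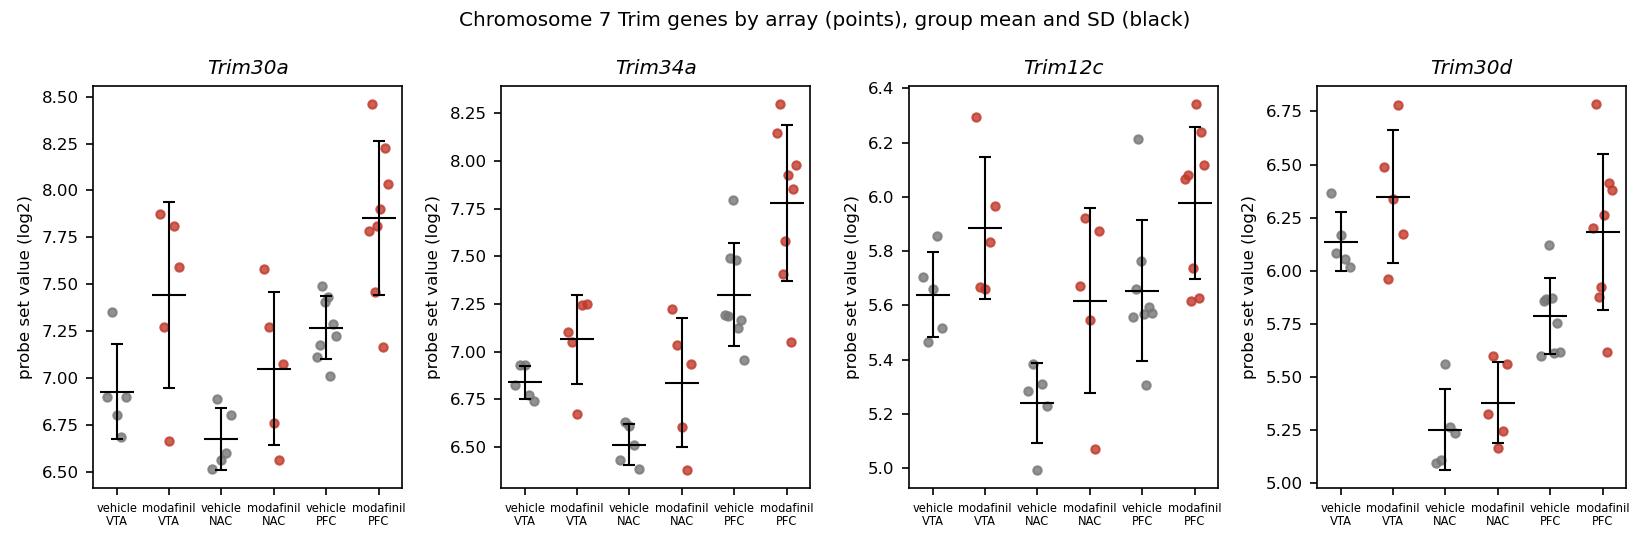
Level (log2 signal, y axis) of Trim30a, Trim34a, Trim12c and Trim30d on every array, grouped on the x axis by region and treatment, with the group mean and SD. The modafinil points of Trim30a and Trim34a spread from the vehicle range upwards, to 8.46 and 8.30 in the PFC.

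The other members of the chromosome 7 run lay below the filter over the 36 arrays and were read in a fit of all 45037 probe sets without a filter, in which 0.5% were called. Trim12c was higher by 0.32 (SE 0.0786, limma adjusted p = 0.0511). Its levels in the NAC were 5.29, 5.38, 5.00, 5.31 and 5.23 with vehicle and 5.67, 5.92, 5.55, 5.07 and 5.87 with modafinil, so that 4 of 5 modafinil arrays lay above the vehicle arrays. The exception was array 4, low in the index. In the VTA and in the PFC 2 modafinil arrays each exceeded the highest vehicle array. Trim12c passed the threshold on leaving out any one of 10 arrays, with an adjusted p of 0.0131 without modafinil NAC array 4.

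Trim30d was higher by 0.27 (SE 0.0802, adjusted p = 0.119), and 5 of 8 modafinil PFC arrays exceeded each vehicle array, at 5.62 to 6.78 with a median of 6.23 against 5.60 to 6.12 with a median of 5.81. Trim6 stood at 0.12 (adjusted p = 0.192), Trim12a at 0.11 (adjusted p = 0.292) and Trim5 at -0.03 (adjusted p = 0.782). The Trim5 probe set read 2.92 to 4.08 on all arrays, far down the scale, and its value does not show that the gene did not change.

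Some of these genes have further probe sets, which did not all show the same change. A second probe set of Trim30a rose by 0.65 across the regions (SE 0.119, adjusted p = 0.00276 without the filter). Second probe sets of Trim34a and Trim30d each stood at 0.04 (adjusted p = 0.712 and 0.724) and that of Trim12c at 0.13 (adjusted p = 0.171). Their mean levels were 4.24, 5.32 and 4.92, against 7.14, 5.87 and 5.69 for the probe sets followed. A small value on such a dim probe set does not show that the gene did not change. A probe set annotated to both Trim30d and Trim30a stood at 0.26. Whether probes of these close paralogs detect more than their own gene was not tested.

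Antiviral members elsewhere in the genome were not called across the regions. Trim25, the ligase that ubiquitinates the RNA sensor RIG-I, stood at -0.07 (limma adjusted p = 0.53), Trim26 at -0.04 (adjusted p = 0.577) and Trim56, a regulator of antiviral innate signalling, at 0.02 (adjusted p = 0.89). The regions differed for Trim25 in direction. In the VTA it stood at -0.23, with 5 of 5 modafinil arrays below the vehicle mean, and in the NAC 4 of 5 lay above it. Its change in NAC minus that in VTA was 0.31, and neither value was called. Trim14, a mitochondrial adaptor of RIG-I signalling that lay below the filter, stood at 0.07 (adjusted p = 0.525 without it). Of the 11 interferon-linked members, 5 were tested across the regions, 2 were called and their median change was 0.02, while the median over the 34 tested members was -0.03. The 15 tested genes of a list led by type I interferon, such as Rsad2 and Bst2, had 12 calls and a median of 0.36 in this fit.

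**Figure D3:**
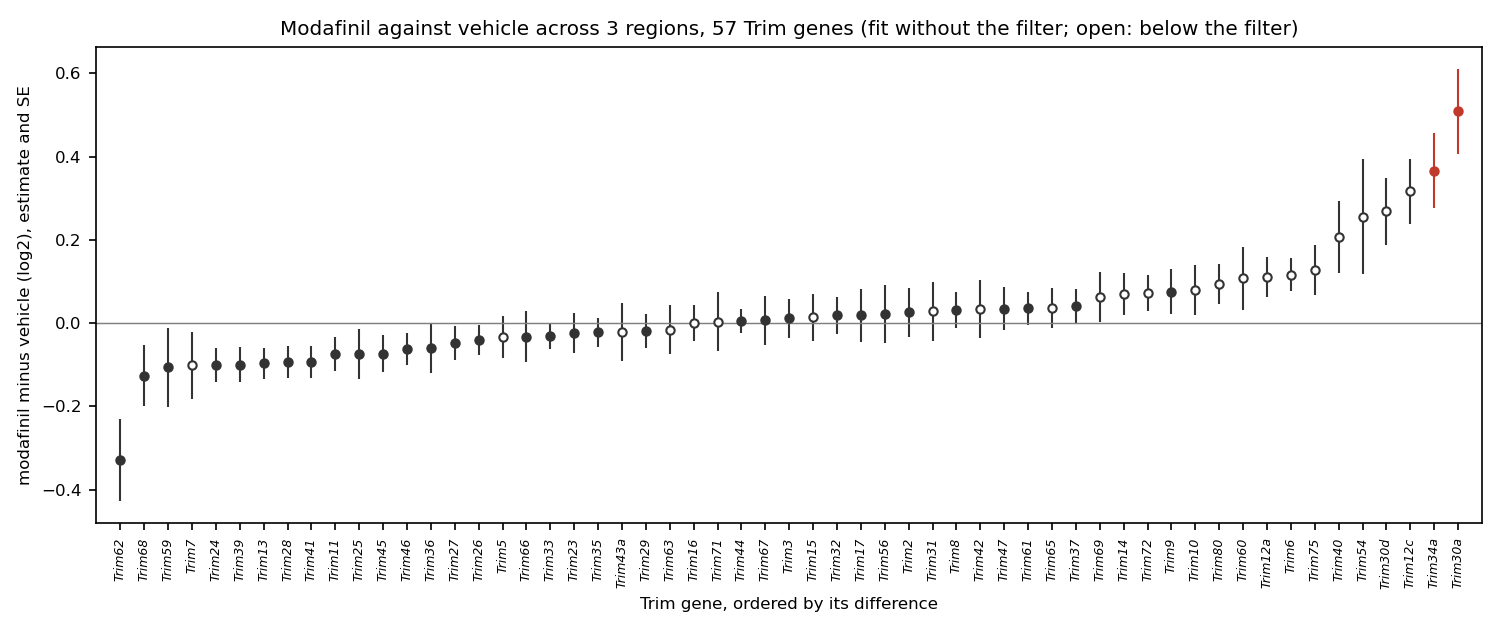
Change with modafinil across the regions (log2, y axis, from the fit without a filter, with SE) for the 57 Trim genes, ordered by value along the x axis. Filled points passed the filter, open points lay below it, and red marks Trim30a (0.51) and Trim34a (0.37), the members called.

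Because the index varied between modafinil arrays, each gene's level was also fitted on the index of the same array, with a mean for each of the 6 groups, so that the slope rests on differences between arrays of a group. Trim30a had a slope of 0.52 log2 per log2 of the index (SE 0.0526, limma adjusted p = 8.66e-09) and Trim34a of 0.42 (SE 0.0533, adjusted p = 2.3e-06). Of the 34 tested members these 2 were called, against 0.944% of all probe sets (0.563% upwards), and the median slope was -0.04. Trim30a ranked 38 and Trim34a ranked 48 by p among the 27022 probe sets. These are 2 of the genes named above for the change with modafinil, and the slope uses the same arrays, so it describes how the change was spread over arrays.

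Without the filter, where 0.573% of probe sets were called, Trim31 and Trim12c were called as well. Trim31, a ligase that acts on the RIG-I adaptor MAVS and that lies on chromosome 17, had a slope of 0.28 (SE 0.0523, adjusted p = 0.00255), although its change with modafinil was 0.03 (adjusted p = 0.873). The Trim31 probe set was dim, at 3.79 to 5.16 on all arrays. Trim12c had a slope of 0.29 (SE 0.0628, adjusted p = 0.0157), which did not pass without modafinil NAC array 4 (adjusted p = 0.109) or without modafinil PFC array 6 (adjusted p = 0.0585). Trim30d stood at 0.25 (SE 0.0673, adjusted p = 0.0871), and passed without modafinil VTA array 2 (adjusted p = 0.0423) or array 3 (adjusted p = 0.0167). Trim12a stood at 0.10, Trim14 at 0.07, and Trim5 and Trim6 each at -0.02. Trim25 stood at 0.11 (SE 0.0536, adjusted p = 0.262 with the filter). On the negative side the lowest p-values were those of Trim36 (-0.14, adjusted p = 0.134), the TIF1 member Trim66 (-0.14, adjusted p = 0.168) and Trim41 (-0.08, adjusted p = 0.216).

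The slope was also read in parts of the data, the last of them chosen after seeing the data. In the PFC arrays alone Trim30a had a slope of 0.57 (adjusted p = 0.000122) and Trim34a of 0.55 (adjusted p = 0.0197). In the VTA alone the slopes were 0.59 (adjusted p = 0.153) and 0.28 (adjusted p = 0.256), and in the NAC alone 0.42 (adjusted p = 0.165) and 0.38 (adjusted p = 0.0513). Among the 13 modafinil arrays above the gap they were 1.02 (adjusted p = 0.506) and 0.46 (adjusted p = 1.00), with no member called. The slope thus has the same sign in each region and among the arrays above the gap, and of the 3 regions it passed the threshold in the PFC.

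Tissue markers stood apart on some of the arrays below the gap. Modafinil NAC arrays 3 and 4 had the lowest striatal levels of their group (10.26 and 9.78 against 10.81 to 11.25) and the highest cortical levels (9.07 and 9.05 against 5.98 to 8.80). Modafinil PFC array 3 had the highest striatal level and the highest oligodendrocyte level of its group (10.42 against 9.45 to 10.09). The slopes of Trim30a and Trim34a stayed past the threshold on leaving out each array in turn, and without modafinil PFC array 3 they were 0.53 and 0.42. In the index fit the slopes of 8 of 8 microglial genes were above 0 (median 0.11, 1 called), 1 of 6 endothelial genes was called (median 0.03), and 5 of 5 cortical genes were below 0 (median -0.24, 0 called). With the microglial level as a covariate the slope was 0.48 for Trim30a (limma adjusted p = 1.86e-06) and 0.36 for Trim34a (adjusted p = 0.000389). The part of the cortical, striatal, oligodendrocyte and endothelial levels in the slopes was not tested.

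**Figure D4:**
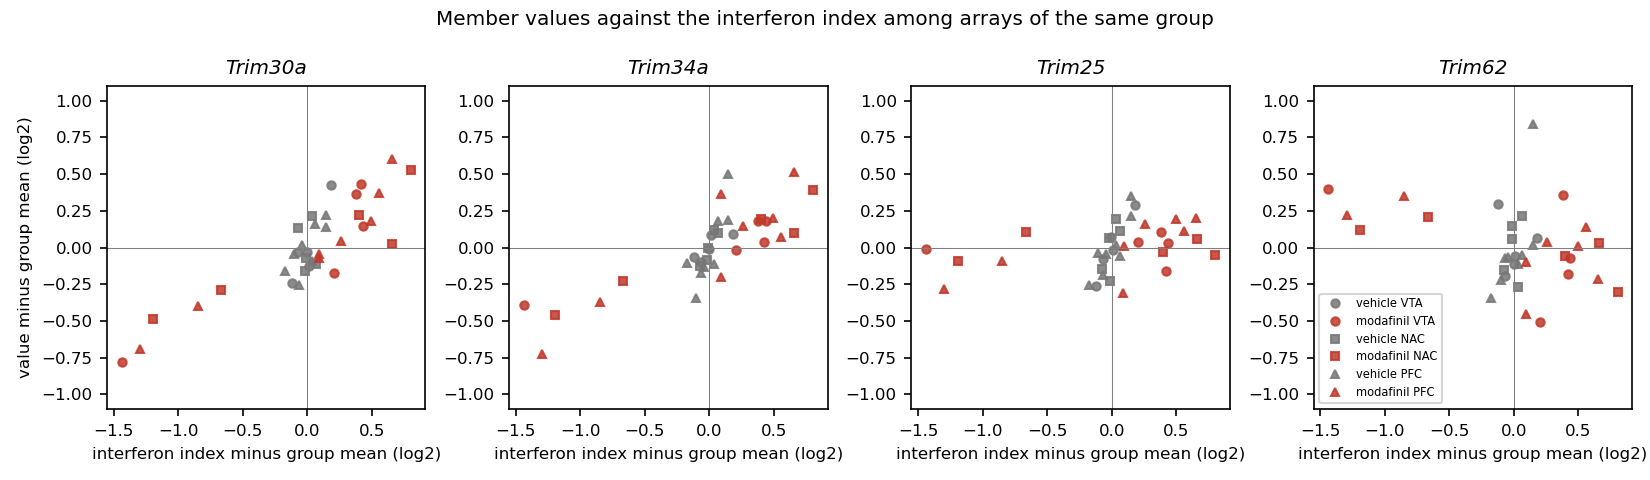
Level of Trim30a, Trim34a, Trim25 and Trim62 (y axis, log2, minus the group mean) against the interferon index (x axis, log2, minus the group mean) on 36 arrays, grey for vehicle and red for modafinil, with circles for VTA, squares for NAC and triangles for PFC. Trim30a and Trim34a rise along the index (slopes of 0.52 and 0.42), and the arrays far to the left are the modafinil arrays below the gap.

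Microglia, the brain's resident macrophages, express many interferon-induced genes, and T cells are a source of interferon gamma. The mean of 9 microglial genes differed between modafinil and vehicle by 0.06 in the VTA, -0.01 in the NAC and 0.04 in the PFC. With that level as a covariate, an alternative chosen after seeing the data, the change across the regions was 0.46 for Trim30a (limma adjusted p = 0.0034) and 0.32 for Trim34a (adjusted p = 0.0256). The mean of 6 T-cell genes lay between 5.31 and 6.32 on all arrays and differed by 0.09 in the PFC, where 6 of 8 modafinil arrays exceeded the vehicle arrays. The part of T cells in the Trim changes was not tested.

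The genes most like Trim30a over the 36 arrays, after the group means were removed, came largely from the same run. Trim34a correlated with it at r = 0.79 (Spearman's rho 0.75), followed by Trim31 (r = 0.61, rho 0.55), Trim30d (r = 0.60, rho 0.58), Trim12c (r = 0.59, rho 0.62) and Trim25 (r = 0.44, rho 0.45). Without modafinil VTA array 3 and modafinil PFC array 6, the arrays farthest out, r was 0.72 for Trim34a, 0.50 for Trim31, 0.59 for Trim30d, 0.54 for Trim12c and 0.41 for Trim25. Within the 18 vehicle arrays Trim25 had the highest of these values, 0.67, and Trim34a had 0.50. Outside the genes just named, Trim7 (0.56), Trim56 (0.55), Trim42 (0.53) and, narrowly, Trim5 (0.501 against 0.497) exceeded Trim34a in the vehicle arrays. Within the 13 modafinil arrays above the gap Trim30d had 0.70, Trim34a 0.54, Trim12c 0.32, Trim25 0.22 and Trim31 0.01. Trim12a (0.58), Trim56 (0.54) and Trim2 (0.54) lay beside Trim34a there, so its likeness was not particular to it in these parts. The points share arrays, regions and RNA quality, and these values are descriptions.

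Among the members with neuronal or other roles, several differed within the VTA without passing the adjusted threshold. Trim62 was 7.13, 7.31, 7.19, 7.54 and 7.05 in vehicle VTA and 6.31, 5.98, 6.89, 6.85 and 6.42 in modafinil VTA, all 5 modafinil arrays lying below the lowest vehicle array. Trim59 was 9.50, 9.70, 9.64, 9.42 and 9.41 with vehicle and 9.07, 8.87, 9.22, 9.02 and 9.35 with modafinil, again without overlap. Trim36, which binds microtubules, was 8.43, 8.38, 8.44, 8.51 and 8.19 with vehicle and 8.02, 7.93, 8.24, 8.01 and 8.05 with modafinil, where array 3 overlapped. The differences were -0.75 for Trim62 (SE 0.161, limma adjusted p = 0.0558), -0.43 for Trim59 (SE 0.0933, adjusted p = 0.056) and -0.34 for Trim36 (SE 0.0771, adjusted p = 0.0615). How many of all probe sets separate without overlap in the VTA was not counted, for these genes or for Trim26 below. In this comparison 14.2% of all probe sets were lower at an unadjusted limma p under 0.05. Trim75, below the filter, lay above the vehicle range on all 5 modafinil VTA arrays.

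Without modafinil VTA array 3, Trim62 stood at -0.85 (adjusted p = 0.0413) and Trim36 at -0.39 (adjusted p = 0.0446). The other 2 probe sets of Trim62 went the opposite way in the VTA, at 0.42 and 0.29, and a second probe set of Trim59 stood at 0.27, so neither gene has a single direction on this array. In the same VTA groups the dopamine neuron genes differed by -1.19 (SE 0.42) and the thalamic genes by 0.94 (SE 0.22). The means of 7 oligodendrocyte genes (-0.17, SE 0.072) and 7 astrocyte genes (-0.20, SE 0.086) also differed in these groups. With the dopamine level as a covariate, also chosen after seeing the data, Trim62 stood at -0.84 (adjusted p = 0.55), Trim59 at -0.28 (adjusted p = 0.572) and Trim36 at -0.31 (adjusted p = 0.55). The part of the thalamic, oligodendrocyte and astrocyte levels was not tested.

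Smaller VTA differences were seen in Trim26 and Trim9. Trim26 was 8.15, 8.04, 8.01, 7.96 and 7.98 with vehicle and 7.79, 7.90, 7.87, 7.85 and 7.83 with modafinil, without overlap, a difference of -0.18 (SE 0.056, limma adjusted p = 0.119). A second probe set of Trim26 stood at 0.02. Trim9, a brain ligase that binds the netrin receptor DCC, was 9.22, 9.19, 9.12, 9.39 and 9.36 with vehicle and 9.81, 9.44, 9.42, 9.37 and 9.48 with modafinil, 4 of 5 arrays exceeding the vehicle range, a difference of 0.25 (SE 0.0893, adjusted p = 0.157). Another Trim9 probe set stood at -0.32 in the VTA, so the direction depends on the probe set. Trim2, an NHL ligase that acts on neurofilament light chain, stood at -0.20 in the VTA (adjusted p = 0.198) and at 0.12 in the PFC (adjusted p = 0.491).

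The 4 TIF1 members were all tested, none was called, and all 4 values were below 0 in the VTA, in the PFC and across the regions, as were 17245, 16881 and 17642 of the 27022 probe sets tested. Trim24 differed by -0.10 across the regions (SE 0.0398, limma adjusted p = 0.208) and Trim28, the corepressor of KRAB zinc finger proteins, by -0.09 (adjusted p = 0.217). In the PFC Trim28 ran from 9.92 to 10.20 with vehicle and from 9.81 to 10.06 with modafinil, 5 of 8 modafinil arrays lying below the lowest vehicle array, and its difference was -0.12 (SE 0.0484, adjusted p = 0.386). The median of the 4 was -0.06 across the regions, against -0.03 for all tested members. Trim33 stood at -0.03 across the regions (adjusted p = 0.603).

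Of the NHL members 3 were tested across the regions and of the COS box members 4, with 0 called in each. The NHL members Trim2 (0.03, limma adjusted p = 0.845), Trim3 (0.01, adjusted p = 0.914) and Trim32 (0.02, adjusted p = 0.85) lay near 0. So did the COS box member Trim67 (0.01, adjusted p = 0.964), while Trim46 stood at -0.06 (adjusted p = 0.392). Among other well-known members, Trim37, whose loss in humans causes Mulibrey nanism, stood at 0.04 (adjusted p = 0.605) and Trim8 at 0.03 (adjusted p = 0.727).

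Trim62 and Trim13 completed the lower end across the regions. Trim62 differed by -0.33 (SE 0.0988, limma adjusted p = 0.0945), with means of 6.94 and 6.96 in vehicle and modafinil NAC and a difference of -0.28 (SE 0.138, adjusted p = 0.441) in the PFC, which was -0.16 without vehicle PFC array 4. Trim13, a ligase anchored in the endoplasmic reticulum, differed by -0.10 (SE 0.0365, adjusted p = 0.185). In the NAC the widest difference was that of Trim54, a microtubule-binding protein of muscle, at 0.64 (SE 0.386, adjusted p = 1.00). Its levels were 6.49, 5.51, 7.05, 6.41 and 6.01 with vehicle and 6.81, 5.62, 7.77, 7.76 and 6.75 with modafinil, a wide spread in both groups, and the difference was 0.97 without modafinil NAC array 2. The lowest p-values among members that were lower in the NAC were those of Trim59 (-0.19, SE 0.0918), Trim24 (-0.12) and Trim13 (-0.14), each with an adjusted p of 1.00, and Trim13 stood at -0.07 without modafinil NAC array 2. In the PFC Trim45 stood at -0.12 (SE 0.0578, adjusted p = 0.431).

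Of 4 genes with a related domain makeup that are named otherwise (Mid1, Mid2, Pml and Mefv), 3 were tested across the regions and none was called in limma, with values of -0.11 for Mid2, 0.03 for Pml and 0.03 for Mefv.

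Whether the modafinil change differed between regions was tested directly. No member was called of 34 tested in any pair, where 0.274% of all probe sets were called for NAC against VTA, 0.903% for PFC against VTA and 0% for PFC against NAC. These comparisons share groups, so their values stand side by side. For Trim30a the change in NAC minus that in VTA was -0.14 (SE 0.281), PFC minus VTA was 0.07 (SE 0.253) and PFC minus NAC was 0.21 (SE 0.253), and for Trim34a the values were 0.10 (SE 0.24), 0.26 (SE 0.217) and 0.16 (SE 0.217). The lowest p in NAC against VTA was that of Trim62, at 0.76 (SE 0.239, limma adjusted p = 0.176), and in PFC against VTA that of Trim36, at 0.39 (SE 0.128, adjusted p = 0.152). PFC against VTA also had Trim27 at 0.27 (adjusted p = 0.176), Trim26 at 0.23 (adjusted p = 0.212), Trim9 at -0.32 (adjusted p = 0.255) and Trim44 at -0.15 (adjusted p = 0.333). NAC against VTA also had Trim36 at 0.38 (adjusted p = 0.282) and Trim2 at 0.31 (adjusted p = 0.414), or 0.20 without vehicle NAC array 1. In PFC against NAC the lowest p was that of Trim29, at 0.20 (SE 0.0914, adjusted p = 0.914). At an unadjusted p under 0.05 there were 4 higher and 0 lower members in the first (11.2% of all probe sets passed in either direction), 7 higher and 2 lower in the second (12.1%) and 1 higher and 0 lower in the third (4.91%).

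In the vehicle mice, 7 members were called higher and 12 lower in the NAC than in the VTA, of 33 tested (57.6%). This share was near that of all probe sets (56.5%, with 28.7% higher and 27.8% lower). Trim9 was 9.22, 9.19, 9.12, 9.39 and 9.36 in the VTA and 9.99, 10.36, 10.18, 10.14 and 10.13 in the NAC, a difference of 0.90 (SE 0.0782). In this comparison only the brightest probe set of each gene was read. Trim9 has others, and its direction with modafinil in the VTA depended on the probe set. Trim46, which organises microtubules in the axon initial segment, was 7.39, 7.27, 7.32, 7.60 and 7.53 in the VTA and 8.27, 8.30, 8.18, 8.40 and 8.47 in the NAC, also a difference of 0.90 (SE 0.0799). Trim67, the paralog of Trim9, went the other way, from 6.87, 7.20, 7.18, 6.89 and 6.79 in the VTA to 5.93, 6.31, 6.06, 5.97 and 5.83 in the NAC, a difference of -0.97 (SE 0.107). The groups did not overlap for any of the 3 genes, and all had called differences in limma, as had 56.5% of all probe sets. These genes were named for the size of their difference. How many of all probe sets separate without overlap between the VTA and the NAC was not counted. The mean of 5 cortical genes was 8.07 (SD 0.87) in vehicle NAC, from 6.70 to 9.12 on single arrays, and 5.18 in vehicle VTA. The part of cortical tissue in these differences was not tested.

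Other members higher in the NAC were Trim17 (0.67, SE 0.095), Trim68 (0.52, SE 0.167) and Trim11 (0.45). Lower in the NAC were Trim66 (-0.77), Trim36 (-0.70), Trim13 (-0.53) and Trim25 (-0.43, limma adjusted p = 0.00549). All 4 interferon-linked members tested had lower values in the NAC, and 3 were called lower, where 27.8% of all probe sets were. The called members were Trim25, Trim26 (-0.34) and Trim34a (-0.33, adjusted p = 0.00146), while Trim30a stood at -0.25 and was not called. Of the 11 tested genes of the interferon index list, 8 were called lower in the NAC in this fit, against 27.8% of all probe sets, with a median of -0.42. Below the filter, Trim30d stood at -0.89 (SE 0.0982) and Trim12c at -0.40 (SE 0.0924) in the fit without it.

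**Figure D5:**
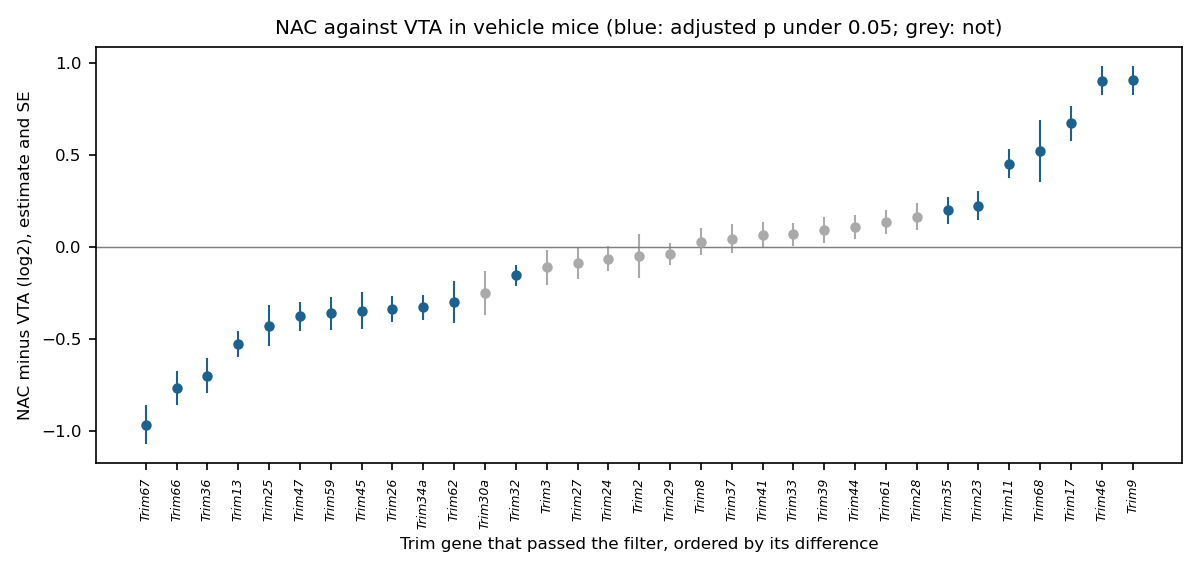
Difference between NAC and VTA in vehicle mice (log2, y axis, with SE) for the 33 Trim genes tested, ordered by value along the x axis, blue where called and grey where not. Trim9 and Trim46 (0.90 each) lie at the right end and Trim67 (-0.97) at the left end.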

How the data were processed

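Total RNA was hybridised to 36 Affymetrix mouse genome arrays. The authors deposited log2 values per probe set, made with RMA per the submitters' processing notes, with version and background settings not given in the sources used here. No probe intensities were used. What could be seen was limited by the number of arrays, by the signal of dim probe sets and by differences between probe sets of a gene.

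Of 45101 probe sets, 64 controls were left out and those with a mean at or above the 40th percentile of the arrays in a fit were tested (27022 in each). Differences were fitted with limma 3.58.1 in R 4.3.3 (lmFit, eBayes, Benjamini-Hochberg over all tested, threshold 0.05). The fits used group means, with the index added for the slope, while the change across the regions used a treatment term with region as a factor. All were tested on simulated data. Between 33 and 36 members were tested, 31 of them in each fit. Named genes were a fixed set of interferon-linked, brain and chromatin members, each member called, the 3 per direction with the lowest p in a comparison (5 per direction by size between regions in vehicle mice, and fewer where the direct tests of region differences had none near the threshold), and the 5 members most like Trim30a. Trim5 and Trim6 and the values below the filter were added after seeing the data. The members and lists were chosen with earlier results of these data known. Probe sets were named from the platform annotation and updated by Entrez identifier, with no symbol changed. Promoter windows were matched by symbol for 46 of 57 members. Searches for 2 further motif forms are not reported here.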

Additional observations from a re-analysis of the deposited data

Results flagged for a closer look

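Single arrays that stood apart within their group were looked for in 31 members (those with the lowest p in a comparison, those of the chromosome 7 run, Trim14 and Trim31), over 186 groups of 5 or 8 arrays, and 12 were found. Chance alone gives about 1 in 20 such groups. Modafinil PFC array 3, the array with a high level of striatal genes, was the highest of its group for Trim36 (8.04, the nearest array 7.54) and for Trim59 (9.47, nearest 8.60). Vehicle PFC array 4 was the highest of its group for Trim62 (7.97, nearest 7.14, without which the PFC difference is -0.16) and Trim67 (7.34, nearest 6.99) and the lowest for Trim37 (10.16, nearest 10.49). Modafinil NAC array 2 was the lowest for Trim13 (8.12, nearest 8.42, without which the NAC difference is -0.07) and Trim29 (6.50, nearest 6.72). Vehicle NAC array 1 was the lowest for Trim37 (9.42, nearest 9.57) and Trim44 (10.65, nearest 10.85), and vehicle VTA array 2 was the lowest for Trim44 (10.59, nearest 10.73). Modafinil VTA array 5 was the lowest for Trim5 (3.06, nearest 3.12), and modafinil VTA array 1 was the highest for Trim9 (9.81, nearest 9.48). Neither Trim30a nor Trim34a had such an array.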

How the results depend on the processing

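In the VTA, where no member was called, 2 were called lower with the 60th percentile filter (Trim36 and Trim59), with trend and robust estimation (Trim59 and Trim62), with arrayWeights and with all 36 arrays in 1 fit (Trim36 and Trim62 in both), and 0 to 2 on leaving out single arrays, 2 of them without modafinil VTA array 3. In the PFC leaving out single arrays gave 0 to 1, and in the NAC and for the differences between regions 0. Across the regions the count of 2 became 0 with the 60th percentile filter, which no longer tests Trim30a or Trim34a, 1 with the replicate block (Trim34a adjusted p = 0.0861) and 1 with treatment and replicate number over the regions as a random block (Trim34a adjusted p = 0.0609), an alternative chosen after seeing the data, and 1 to 2 on leaving out single arrays. With arrayWeights 1 member, Trim26, was called for PFC against VTA (0.26, limma adjusted p = 0.0478). For the index slope the count of 2 became 4 without a filter, 0 with the 60th percentile filter, 1 in vehicle arrays alone (Trim25, 1.63, adjusted p = 0.0462), and 0 in VTA arrays, in NAC arrays and in modafinil arrays above the gap, and it stayed at 2 on leaving out each array. The count of 19 for NAC against VTA became 29 without a filter and 12 with the stricter filter, and ran from 15 to 20 on leaving out single arrays. Signs turned in 7 instances: Trim31 across the regions without modafinil NAC array 1 (-0.00074, in a range up to 0.0577 on leaving out other arrays), and the slopes of Trim36 (0.14 and 0.14), Trim66 (0.0502 and 0.148) and Trim14 (-0.0560 and -0.103) in vehicle arrays alone and in modafinil arrays above the gap. Apart from changes set by the number of genes or arrays tested, the cause was not tested.

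The replicate numbers were not taken as pairs. Same-numbered vehicle and modafinil arrays correlated over 0.1 in 1 of 5 pairs in the VTA, 1 of 5 in the NAC and 3 of 8 in the PFC. Same-numbered arrays of different regions did so in 0 to 1 of 5 vehicle pairs and 2 to 3 of 5 modafinil pairs, with r up to 0.32 (modafinil NAC and PFC), and 4 of 5 vehicle VTA arrays correlated best with their own number in the NAC. The labels do not say that a number marks a mouse. With the replicate block 0 members were called within the regions and for the differences between regions, 2 for the index slope and 19 for NAC against VTA. Of the values of single genes under all alternatives, 2190 kept their direction and their side of the threshold. A further 31 came to pass it, 42 ceased to pass it and 7 turned sign. Of the counts, 269 stayed equal to the main count or within a fixed ratio of it, 24 fell further and 9 rose further. Quantile normalization over all arrays moved the medians of VTA and NAC arrays up by 0.17 to 0.23 and those of PFC arrays by -0.25, while the median change with modafinil stayed within 0.01 of 0 in each comparison.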

Other observations

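The probe sets that name Trim34a together with Trim34b, which were left out of the 57 genes, stood at 0.16 and 0.06 across the regions, and their index slopes were 0.27 (limma adjusted p = 0.000305) and 0.04. The probe set that names Trim30d together with Trim30a stood at 0.26 across the regions (adjusted p = 0.0406). Another probe set of Trim9 stood at -0.21 across the regions (adjusted p = 0.0671 without a filter), against 0.08 (adjusted p = 0.478) for the probe set followed here.

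With a list led by type I interferon in place of the interferon gamma list as the index, the slope of Trim30d was 0.83 (limma adjusted p = 0.00125 without a filter), and that of Trim31 was 0.60 (adjusted p = 0.0514). The 2 indices share arrays and were not compared with each other. In the PFC arrays alone, Trim30d had a slope on the interferon gamma index of 0.49 (adjusted p = 0.00547). Trim63, a muscle ligase, had group means between 3.00 and 3.67 in the 6 groups, below the filter in each.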
